A study of Mus musculus with 40 samples.

Results

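The mRNAs of the colony-stimulating factors and of their receptors were followed through the LPS response of WT and *Cpeb4*-/- macrophages. Members were chosen by gene symbol, and all 8 were found among the 27179 genes of the deposited table. They are 3 ligands (*Csf1*, *Csf2* and *Csf3*) and 5 receptor genes (*Csf1r*, *Csf2ra*, *Csf2rb*, *Csf2rb2* and *Csf3r*). The cells were bone marrow-derived macrophages (BMDMs), grown in culture from the marrow of 8 male mice of mixed C57BL/6J and 129 background, 4 of them WT and 4 lacking *Cpeb4* in the whole body (CPEB4-KO). The labels give no age beyond adult. CPEB4 is a protein that binds the 3′ untranslated region (UTR) of mRNAs. Each mouse gave 5 samples, from untreated cells (0 hr) and from cells treated with LPS, a component of the bacterial outer membrane, at 10 ng/ml for 1, 3, 6 or 9 hr. There were 40 libraries, with 4 mice behind each combination of genotype and time. The growth medium held L-cell conditioned medium as the source of M-CSF, the protein that *Csf1* encodes, and the medium given after the last change names no such supplement.

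M-CSF keeps macrophages alive and drives their formation through the receptor tyrosine kinase CSF1R, which also binds IL-34. GM-CSF, the product of *Csf2*, binds an alpha chain of its own (*Csf2ra*) that signals with the common beta chain (*Csf2rb*), shared with the receptors of IL-3 and IL-5, while *Csf2rb2* encodes a related mouse beta chain that serves IL-3 alone. G-CSF, the product of *Csf3*, acts through *Csf3r* and is best known for the formation and release of neutrophils. The short-lived mRNAs of this family carry AU-rich elements in the 3′ UTR, at which proteins such as TTP bind to destabilise them, and CPEB proteins bind cytoplasmic polyadenylation elements (CPEs) in the same region.

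The AU-rich stretches of the ligand mRNAs are shown because the ligands are the members whose levels rose and fell fastest. Each line gives the 30 bases of the 3′ UTR with the most ATTTA pentamers, 5′ to 3′ on the mRNA strand and written as DNA, from the GENCODE vM21 transcripts on mm10. Capitals mark the pentamers, and pentamers that share a letter run together.
Csf1, chr3:107741103-107741132, minus strand: taaggtcATTTAaatatctATTTAaaaaat
Csf2, chr11:54247325-54247354, minus strand: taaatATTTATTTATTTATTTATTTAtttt
Csf3, chr11:98702988-98703017, plus strand: gtttATTTAtctctATTTAatATTTAtgca
The *Csf2* window holds 5 pentamers in an unbroken run, that of *Csf3* holds 3 and that of *Csf1* holds 2. In the whole 3′ UTR, *Csf2* has 9 pentamers in 317 bases, *Csf3* has 6 in 669 bases and *Csf1* has 4 in 2111 bases. Among 3′ UTRs within 10% of the same length, 0.0% of 810 had as many pentamers as *Csf2*, 1.5% of 1065 as many as *Csf3* and 48.7% of 1382 as many as *Csf1*. Of the receptor mRNAs, *Csf1r* has 3 pentamers in 1669 bases, and *Csf2ra*, *Csf2rb*, *Csf2rb2* and *Csf3r* have 0. For CPEs the letters TTTTAT were searched, as well as the letters TTTTAAT, next the longer form TTTTAAAT, then the variant TTTTACT, also the variant TTTTCAT, besides the longer variant TTTTAAGT, and last the variant TTTTGT, on the mRNA strand with overlaps counted. They were found 3 times in *Csf1*, 2 times in *Csf2* and 1 time in *Csf3*. As many were found in 81.0%, 22.8% and 73.6% of 3′ UTRs of like length. The receptor mRNAs hold 0 to 3 of them, with 0 in *Csf1r* and *Csf2ra*. These matches describe letters in the longest annotated 3′ UTR and not binding.

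The 8 genes lie on 6 chromosomes of mm10. *Csf1* is at chr3:107741048-107760469, *Csf1r* at chr18:61100598-61132149, *Csf2ra* at chr19:61223957-61228429 and *Csf3r* at chr4:126024550-126044440. *Csf2* (chr11:54247271-54249667) and *Csf3* (chr11:98701263-98703629) share chromosome 11 with *Cpeb4* (chr11:31872211-31935634), at 22.3 Mb and 66.8 Mb from it. *Csf2rb* (chr15:78325752-78353847) and *Csf2rb2* (chr15:78282507-78305721) are neighbours on opposite strands, 20.0 kb apart. Their transcripts share 892 stretches of 50 bases, which are 12.3% of those of *Csf2rb* and 18.4% of those of *Csf2rb2*, so the division of reads between these 2 genes is uncertain.

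The deposited values are rlog values, a log2 scale corrected for library size, in which weakly expressed genes are pulled toward their mean. A difference of 1 is a doubling. No read depth is in the table, so counting error could not be given. *Cpeb4* itself was detected in both genotypes. Its 6 hr level was 10.45 ± 0.26 in WT (SD of 4 libraries) and 9.18 ± 0.45 in libraries labelled *Cpeb4*-/-, a difference of −1.27 (limma adjusted p = 0.0011), with all 4 *Cpeb4*-/- values below WT. At 0, 1, 3 and 9 hr the genotypes overlapped in *Cpeb4* and no difference passed the test (0.37 higher in libraries labelled *Cpeb4*-/- at 1 hr). The genotypes used here are therefore those of the labels. The paper also shows immunoblots of CPEB4 protein in LPS-treated WT and *Cpeb4*-/- BMDMs, whereas the values here are mRNA. The 10 macrophage markers were all measured above the filter used here, and their summed level lay between 18.59 and 19.45 (log2) in every library. All 8 lymphocyte markers were below the filter in every library, as were *Ly6g*, *Mpo*, *Elane*, *Prtn3*, *Ctsg*, *Cxcr2* and *Retnlg* of the 13 neutrophil and granulocyte markers. No cage held both genotypes, so cage and genotype cannot be told apart, while each of the 2 batches named in the labels held 2 mice of each genotype.

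Compared per exon length, the M-CSF receptor and the alpha chain of the GM-CSF receptor were the most abundant members in untreated WT BMDMs. Back-transformed rlog values were divided by the exon length of the gene to give normalised reads per kb. *Csf1r* was at 9279 per kb (lowest 8734, highest 9875, n = 4) and *Csf2ra* at 3835 (3379 to 4740). *Csf2rb2* followed at 1096 (847 to 1239), *Csf2rb* at 809 (719 to 851) and *Csf3r* at 483 (436 to 537). The ranges of *Csf2rb2* and *Csf2rb* overlapped, whereas the other neighbours among the receptors did not. Among the ligands *Csf1* was at 67.9 per kb (57.3 to 78.6), and *Csf2* (14.5, 14.4 to 14.7) and *Csf3* (14.0, 13.2 to 15.2) overlapped at the bottom. The shrinkage of rlog pulls such low values toward the mean of the gene, so these low levels are not exact.

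**Figure D1:**
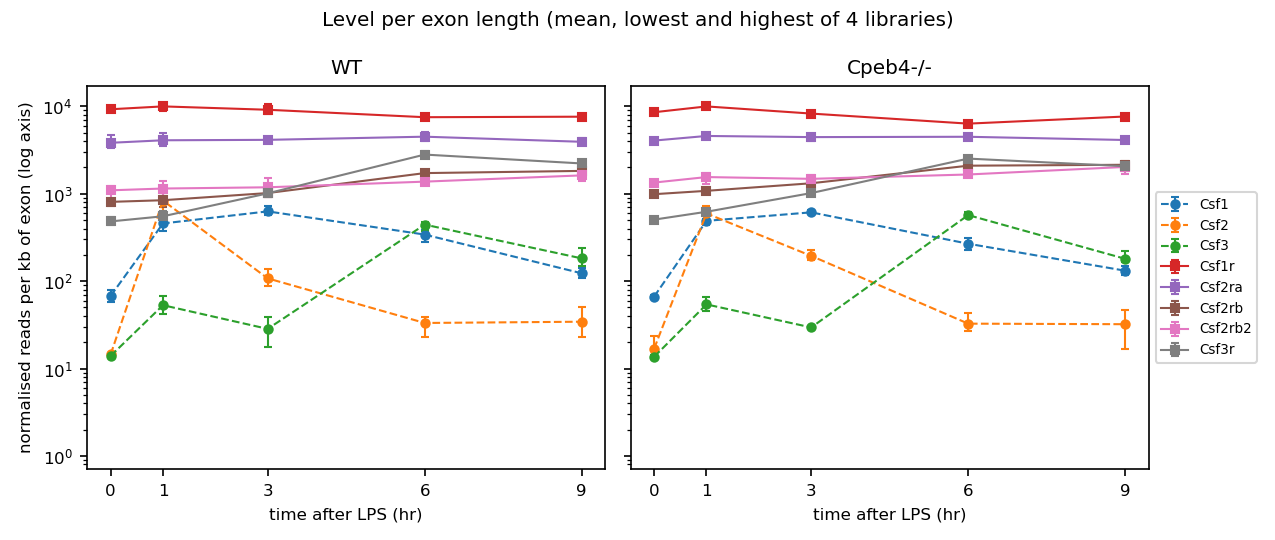
Level of each member per kb of exon (normalised reads per kb, log axis) against time after LPS, for WT (left) and *Cpeb4*-/- (right). Points are means of 4 libraries, bars run from the lowest to the highest library, and dashed lines are the ligands. *Csf1r* stays at the top in both genotypes, and the ligands change places, with *Csf2* highest of the 3 at 1 hr, *Csf1* at 3 hr and *Csf3* at 6 hr.

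In WT all 3 ligands rose within 1 hr of LPS, and their highest mean levels came in turn. At 1 hr *Csf2* led the ligands in WT with 835 per kb (589 to 1070), above *Csf1* with 458 (372 to 530). At 3 hr *Csf1* led with 629 (566 to 727), and *Csf2* had fallen to 108 (89.1 to 139). At 6 hr *Csf3* had reached 444 (375 to 476) and overlapped with *Csf1* at 342 (282 to 389), while *Csf2* was at 33.3 (22.8 to 38.8). By then *Csf3r* stood below only *Csf1r* and *Csf2ra*, at 2812 (2560 to 3067), above *Csf2rb* at 1726 (1681 to 1773) and *Csf2rb2* at 1378 (1248 to 1467), with no overlap between these 3.

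Changes over time were tested within each genotype with limma, in a model that holds a mean for each of the 10 combinations of genotype and time and was fitted to 13103 genes. At 6 hr against 0 hr, all 8 members passed an adjusted p under 0.05 in WT, 7 higher and 1 lower, where 79.9% of all genes tested passed, 39.7% higher and 40.2% lower. In *Cpeb4*-/- 7 of 8 passed, 6 higher and 1 lower, against 77.9% of all genes (38.4% higher, 39.5% lower). At 1 hr the counts were 4 of 8 in WT (37.7% of all genes, 19.4% higher) and 5 of 8 in *Cpeb4*-/- (41.9%, 22.6% higher), all of them higher. At 3 hr 5 of 8 were called in each genotype, all higher (69.9% of all genes in both, with 33.5% higher in WT and 33.7% in *Cpeb4*-/-). At 9 hr 7 of 8 were called in each, 6 higher and 1 lower. Of all genes 73.7% passed in WT (37% higher, 36.6% lower) and 71.3% in *Cpeb4*-/- (35.7% higher, 35.6% lower). From 6 to 9 hr in WT 3 of 8 passed, all lower, against 54.4% of all genes (29.5% lower). With the mouse as a block 5 of 8 passed, where 60.1% of all genes did with it as a fixed effect and 59.8% as a random effect. In *Cpeb4*-/- 4 of 8 passed from 6 to 9 hr, 3 lower and 1 higher (*Csf1r*, by 0.27), against 51.5% of all genes (26.6% lower, 24.8% higher).

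*Csf2*, the GM-CSF mRNA, had the lowest rlog level of the members in untreated cells and rose fastest. The shrinkage of rlog acts on such low values, so the untreated level, its SD and the fold below are not exact. In WT the untreated level of 3.54 ± 0.015 (SD, n = 4) became 9.35 ± 0.36 at 1 hr, a rise of 5.81 (standard error 0.24, adjusted p = 2.9e-21), or 56.2-fold on the rlog scale. In *Cpeb4*-/- it went from 3.73 ± 0.34 to 8.88 ± 0.26, a rise of 5.15 (standard error 0.24, adjusted p = 1.0e-19). It was back to 4.70 ± 0.35 in WT and 4.68 ± 0.31 in *Cpeb4*-/- at 6 hr, still 1.16 and 0.96 above untreated cells (adjusted p = 4.5e-05 and 0.00053). *Csf2* peaked at 1 hr in each of the 8 mice.

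*Csf1*, the M-CSF mRNA, rose by 2.75 in WT and 2.88 in *Cpeb4*-/- within 1 hr and peaked at 3 hr. At 3 hr it was at 11.69 ± 0.15 in WT and 11.66 ± 0.08 in *Cpeb4*-/-, a rise over 0 hr of 3.21 and 3.20 (standard error 0.11, adjusted p = 2.3e-24 and 2.7e-24), or 9.28-fold in WT. At 9 hr it had fallen to 9.34 ± 0.15 and 9.44 ± 0.14. That was 19.7% ± 2.3 (SD, n = 4 mice) of the peak in WT and 21.5% ± 1.7 in *Cpeb4*-/-, on the back-transformed scale with each mouse set to its own peak.

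*Csf3*, the G-CSF mRNA, had an early and a late rise. It went from 4.30 ± 0.09 to 6.21 ± 0.30 in WT at 1 hr (a rise of 1.91, standard error 0.16, adjusted p = 1.1e-12) and fell back to 5.28 ± 0.46 at 3 hr. By 6 hr it had reached 9.29 ± 0.16 in WT and 9.65 ± 0.07 in *Cpeb4*-/-, which is 4.99 and 5.39 above untreated cells, or 31.7-fold and 41.8-fold. At 9 hr it was at 40.9% ± 6.6 of the peak in WT and 31.7% ± 5.1 in *Cpeb4*-/-. The peak was at 6 hr in all 8 mice.

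**Figure D2:**
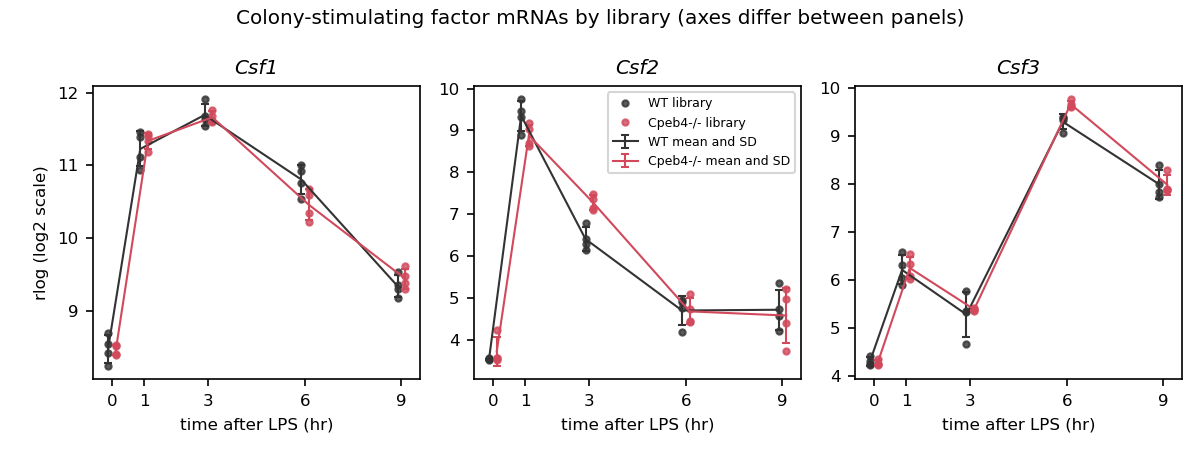
rlog values of *Csf1*, *Csf2* and *Csf3* (log2 scale, axes differ) against time after LPS. Each point is a library, and lines join the means of 4 libraries with bars of 1 SD, black for WT and red for *Cpeb4*-/-. The genotypes part for *Csf2* at 3 hr, where the 4 *Cpeb4*-/- values lie between 7.11 and 7.49 and the WT values between 6.16 and 6.80.

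Among the receptors, *Csf3r* changed most. It rose from 10.76 ± 0.12 to 13.31 ± 0.11 at 6 hr in WT, by 2.54 (standard error 0.07, adjusted p = 4.2e-27), and by 2.32 (adjusted p = 7.9e-26) in *Cpeb4*-/-, where it reached 13.15 ± 0.09. At 9 hr it was at 79.2% ± 1.7 of the peak in WT and 82.0% ± 8.1 in *Cpeb4*-/-. After quantile normalisation of the libraries the rises at 6 hr were 1.99 and 1.86. The level at 9 hr was then 97.3% of the peak in WT and 94.6% in *Cpeb4*-/-, so the size of the late fall depended on the scaling. The WT rise at 1 hr, 0.19 (limma adjusted p = 0.035), was then 0.086 (0.35).

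The beta chains rose later and less. *Csf2rb* was 1.10 higher at 6 hr and 1.18 higher at 9 hr than at 0 hr in WT (standard error 0.07, adjusted p = 1.0e-16 and 2.0e-17), and 1.08 and 1.11 higher in *Cpeb4*-/-. *Csf2rb2* was 0.58 higher at 9 hr in WT and 0.59 higher in *Cpeb4*-/- (standard error 0.13, adjusted p = 0.00023 and 0.00020). *Csf1r* was 0.30 lower in WT and 0.43 lower in *Cpeb4*-/- at 6 hr (standard error 0.06, adjusted p = 2.8e-05 and 5.0e-08). *Csf2ra* was 0.24 higher at 6 hr in WT (adjusted p = 0.015) and 0.14 higher in *Cpeb4*-/- (adjusted p = 0.15).

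These smaller receptor changes depended on how libraries were scaled. The rises of the ligands and the rise of *Csf3r* at 6 hr kept their direction and call, although that of *Csf3r* became smaller. The 99th percentile of rlog over the genes tested rose from 14.14 in WT at 0 hr to 15.03 at 6 hr and from 14.11 to 14.91 in *Cpeb4*-/-, and quantile normalisation removes that rise. With it, *Csf2rb* at 6 hr was only 0.25 higher in WT and 0.27 in *Cpeb4*-/-, *Csf2ra* was 0.67 lower in both, *Csf2rb2* was 0.34 and 0.41 lower, and *Csf1r* was 1.12 and 1.13 lower. At 9 hr *Csf2rb* was then 0.61 and 0.58 higher, and the rises of *Csf2rb2* lost their calls, at 0.10 in WT (adjusted p = 0.54) and 0.046 in *Cpeb4*-/- (adjusted p = 0.77). The direction over time of *Csf2ra* and *Csf2rb2* at 6 hr and of *Csf2rb* at 3 hr is therefore set by the scaling.

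**Figure D3:**
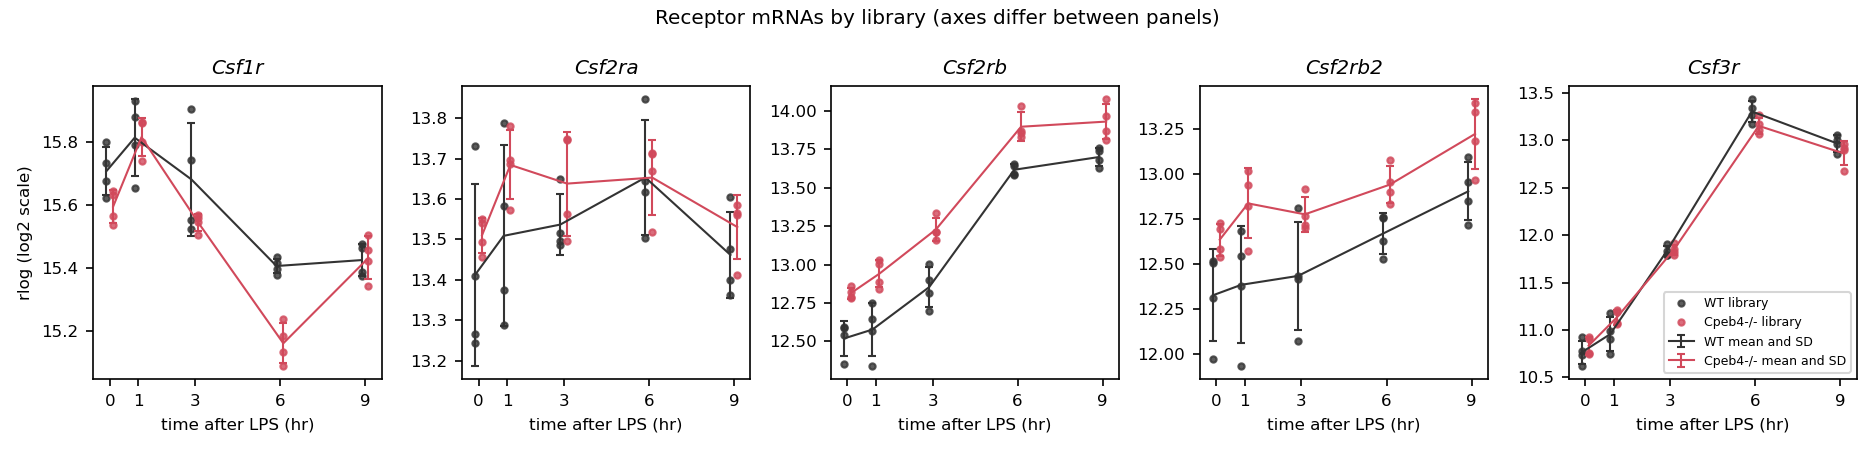
rlog values of *Csf1r*, *Csf2ra*, *Csf2rb*, *Csf2rb2* and *Csf3r* (log2 scale, axes differ) against time after LPS. Each point is a library, and lines join the means of 4 libraries with bars of 1 SD, black for WT and red for *Cpeb4*-/-. *Csf2rb* runs higher in *Cpeb4*-/- at each of the 5 times, and *Csf1r* is lower in *Cpeb4*-/- at 6 hr, at 15.16 against 15.41.

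Whether the loss of *Cpeb4* changed these mRNAs was tested at each time on the 8 libraries of that time. At 0 hr 1 of 8 members was called, against 1.31% of all genes tested (0.741% higher), and at 1 hr 0 of 8 were called, against 1.91%. At 1 hr 3 members had an unadjusted limma p under 0.05. At 3 hr 2 of 8 were called (3.68%), both higher (1.81%). At 6 hr 5 of 8 were called (16.3%), 3 higher (6.4%) and 2 lower (9.92%). At 9 hr 0 of 8 were called (7.91%), with 2 at an unadjusted p under 0.05. The shares of all genes at an unadjusted p under 0.05 are not given here, so these counts cannot be set against them. With all 40 libraries in one fit, 1, 2, 2, 3 and 1 members were called in order of time, where 2.49%, 31.9%, 10%, 15.6% and 17.4% of all genes were. With the mouse as a block in that fit it was 1, 3, 3, 3 and 2 members, and 3.16%, 33%, 10.6%, 16.3% and 18.1% of all genes. The shares of all genes in the fits by time also moved when 1 mouse was left out, to between 0.336% and 1.25% at 0 hr, 0.305% and 18.6% at 1 hr, 0.581% and 19.8% at 3 hr, 10.3% and 17.9% at 6 hr and 2.98% and 35.2% at 9 hr. The highest shares were reached without WT mouse 69 at 1 hr (4 members called), without WT mouse 88 at 3 hr (3 members) and without *Cpeb4*-/- mouse 2 at 9 hr (2 members). In order of time, the groups did not overlap for 2, 1, 2, 4 and 1 of the 8 members, while this was so for 10.5%, 15.7%, 13.6%, 20.2% and 16.9% of all genes tested.

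**Figure D4:**
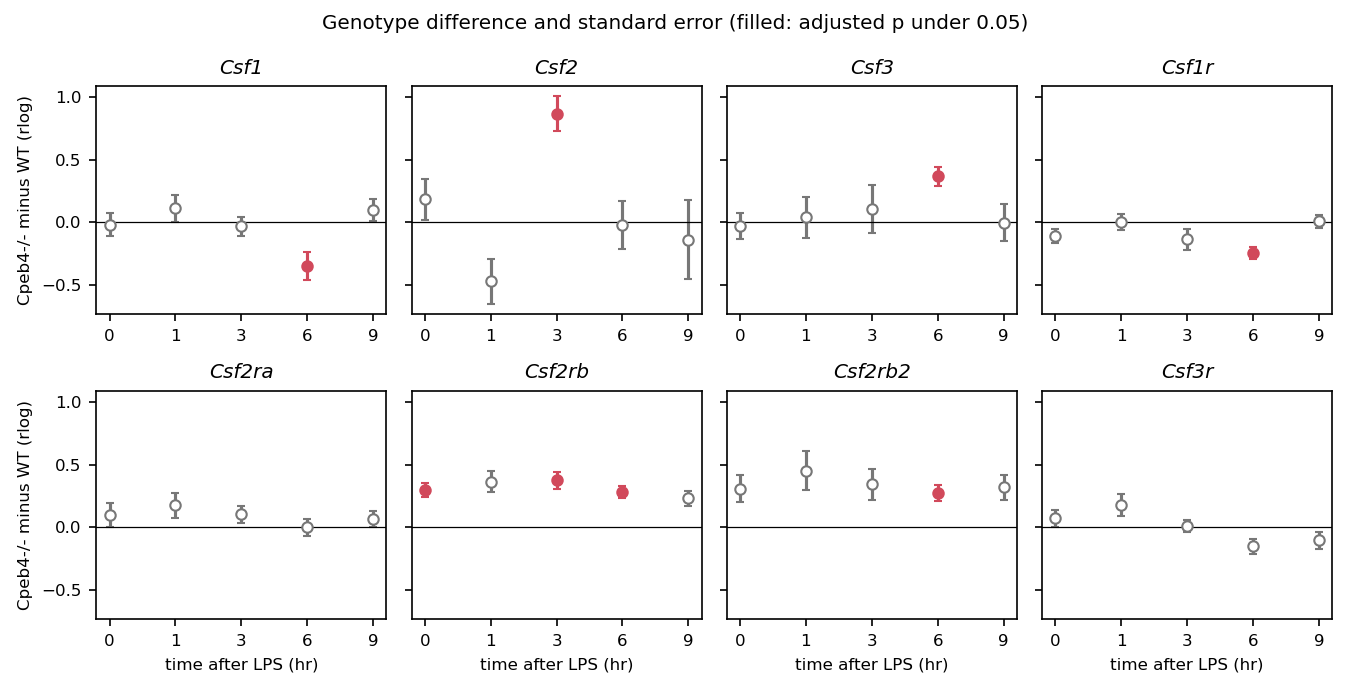
Difference between *Cpeb4*-/- and WT in rlog (log2 scale, y axis) for each member at each time after LPS (x axis, times evenly spaced), with bars of 1 standard error from limma. Filled red points have an adjusted p under 0.05. The largest is *Csf2* at 3 hr with 0.87, and *Csf2rb* lies between 0.23 and 0.38 at all 5 times.

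Whether the genotype difference changed with time was tested as an interaction, and 0 of 8 members were called by limma in any such contrast. Against 0 hr the share of all genes called was 0.00763%, 0.206%, 2.94% and 1.76% at 1, 3, 6 and 9 hr, and 0, 0, 2 and 0 members had an unadjusted p under 0.05. Between successive times it was 0.13% (1 to 3 hr), 0.923% (3 to 6 hr) and 1.92% (6 to 9 hr), with 1, 2 and 2 members at an unadjusted p under 0.05. Shares of all genes at that unadjusted p are not given here either, so these member counts have no background beside them. With the mouse as a fixed effect 1 member was called from 1 to 3 hr (0.588% of all genes) and 1 from 6 to 9 hr (5.62%). As a random effect it was 1 (0.633%) and 2 (5.34%), as given with *Csf2*, *Csf1* and *Csf1r*.

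*Csf2* differed between genotypes at 3 hr, on its way down. The WT libraries were then at 6.40, 6.16, 6.29 and 6.80, and the *Cpeb4*-/- libraries at 7.49, 7.14, 7.11 and 7.35. All *Cpeb4*-/- values were above all WT values. The difference was 0.87 (standard error 0.14, adjusted p = 0.013), or 1.82-fold higher in *Cpeb4*-/-. It was 1.04 within batch 1 and 0.69 within batch 2. Without *Cpeb4*-/- mouse 3 it was 0.79 with an adjusted p of 0.058, and without the filter on low values the adjusted p was also 0.058. In the other fits and with the other mice left out in turn it ran from 0.0024 to 0.039.

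At the peak the order was the other way, without passing the test. At 1 hr *Csf2* was at 9.32, 9.46, 8.88 and 9.74 in WT and at 9.02, 8.63, 9.17 and 8.69 in *Cpeb4*-/-. These ranges overlapped, and the difference was −0.47 (standard error 0.18, adjusted p = 0.11). Without WT mouse 69 it was −0.63 (adjusted p = 0.040). At 6 hr the genotypes differed by −0.02 and at 9 hr by −0.14 (adjusted p = 0.96 and 0.81).

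The fall of *Csf2* from 1 to 3 hr was followed in each mouse, a contrast added after the values had been seen. It was −2.93, −3.31, −2.59 and −2.95 in the WT mice and −1.53, −1.49, −2.06 and −1.34 in the *Cpeb4*-/- mice. Every WT mouse lost more than any *Cpeb4*-/- mouse. *Csf2* at 3 hr was thus at 13.2% ± 2.6 of the peak in WT and at 33.4% ± 6.6 in *Cpeb4*-/- (SD, n = 4 mice). The steps differed by 1.34 (p = 0.029 by a two-sided exact permutation test, the lowest value possible with 4 mice against 4, and 0.18 adjusted over 32 steps). The adjusted value could fall under 0.05 only if many of the 32 steps reached that lowest value, so it cannot decide on a single step. In the limma model over all genes the adjusted p of this contrast was 0.11 without and 0.016 with the mouse as a block, where 0.13% of all genes were called without and 0.588% with it. From 3 to 6 hr the step was larger in *Cpeb4*-/- mice, −2.59 ± 0.14 against −1.71 ± 0.42 in WT, again with no overlap, and the difference of −0.89 had an adjusted p of 0.26 without and 0.076 with the block. That contrast was also added after the values had been seen. It uses the same 3 hr values, so it is not a separate observation.

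*Csf3* was higher in *Cpeb4*-/- at its peak. At 6 hr the WT libraries were at 9.33, 9.05, 9.39 and 9.37 and the *Cpeb4*-/- libraries at 9.65, 9.61, 9.76 and 9.60. The groups did not overlap. The difference was 0.37 (standard error 0.07, adjusted p = 0.0059), or 1.29-fold, and it was 0.44 and 0.30 within the batches. It kept its call with each mouse left out (adjusted p from 0.0063 to 0.023), but not with all 40 libraries sharing one spread (adjusted p = 0.11 with and without the mouse as a block). At the other times the differences were −0.03, 0.04, 0.11 and −0.0037, with adjusted p of 0.76 or higher.

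*Csf1* was lower in *Cpeb4*-/- at 6 hr, close to the threshold. WT libraries were at 10.54, 10.92, 11.01 and 10.76 and *Cpeb4*-/- libraries at 10.67, 10.22, 10.34 and 10.60. The ranges overlapped, with 2 of 4 *Cpeb4*-/- values below all WT values. The difference was −0.35 (standard error 0.11, adjusted p = 0.047), or 1.27-fold lower. The call was lost with batch as a covariate (adjusted p = 0.060), with robust eBayes (0.096), without trend (0.12), without the filter (0.20) and with 5 of the 8 mice left out in turn (WT 88, 69 and 87, *Cpeb4*-/- 62 and 2, adjusted p from 0.073 to 0.13).

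Within a mouse, *Csf1* fell by 1.47 ± 0.08 in WT and by 1.02 ± 0.09 in *Cpeb4*-/- from 6 to 9 hr (SD, n = 4 mice). The WT steps ran from −1.57 to −1.37 and those of *Cpeb4*-/- from −1.12 to −0.93, with no overlap. The difference of 0.45 had an adjusted p of 0.14 in the limma model and of 0.018 with the mouse as a block (1.92% of all genes called without and 5.62% with it). The exact permutation test gave p = 0.029 (0.18 adjusted). From 3 to 6 hr the order was opposite, with a fall of 0.89 ± 0.15 in WT and of 1.20 ± 0.16 in *Cpeb4*-/- (exact permutation p = 0.029, 0.18 adjusted). Both steps use the same 6 hr values, so they are not separate observations. The adjusted permutation values have the limit given with *Csf2*.

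**Figure D5:**
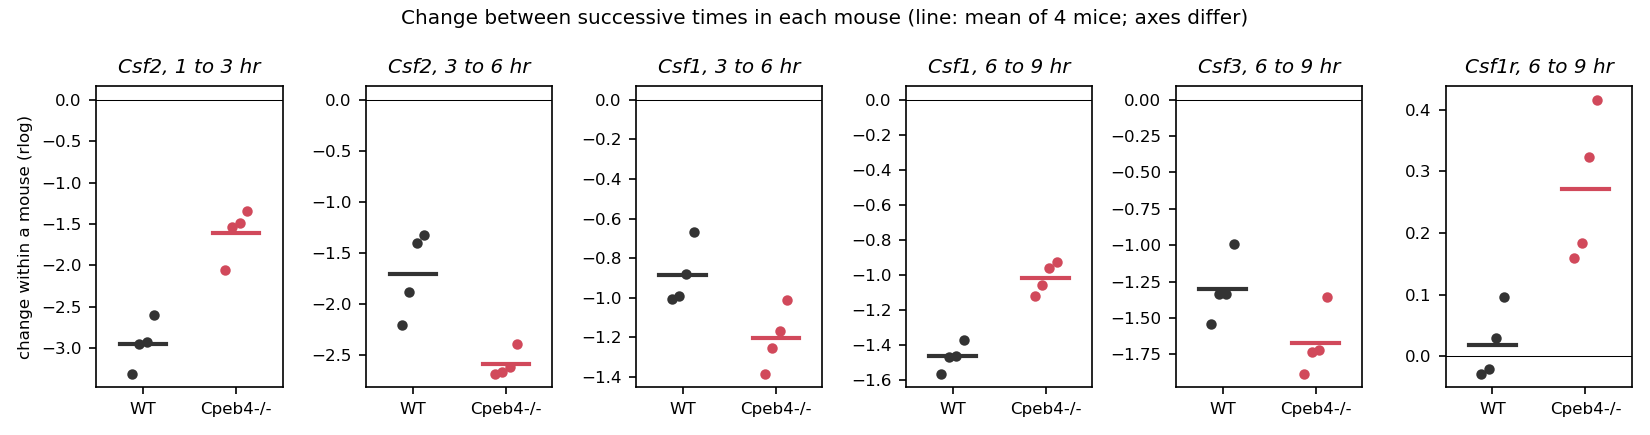
Change in rlog (log2 scale, axes differ) between successive times within each mouse for *Csf2* (1 to 3 and 3 to 6 hr), *Csf1* (3 to 6 and 6 to 9 hr), *Csf3* and *Csf1r* (6 to 9 hr), WT in black and *Cpeb4*-/- in red. Each point is a mouse and each line the mean of 4 mice. *Csf2* from 1 to 3 hr lies between −3.31 and −2.59 in WT mice and between −2.06 and −1.34 in *Cpeb4*-/- mice.

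*Csf1r*, the M-CSF receptor, was also lower in *Cpeb4*-/- at 6 hr. WT libraries were at 15.42, 15.38, 15.40 and 15.43 and *Cpeb4*-/- libraries at 15.13, 15.09, 15.19 and 15.24. All *Cpeb4*-/- values were below all WT values. The difference was −0.25 (standard error 0.05, adjusted p = 0.0044), or 1.19-fold lower, and −0.29 and −0.20 within the batches. It kept its call with each mouse left out (adjusted p from 0.0022 to 0.016) but was −0.11 (adjusted p = 0.091) after quantile normalisation. At 9 hr both genotypes were at 15.43, and *Csf1r* rose between 6 and 9 hr by 0.16 to 0.42 in each *Cpeb4*-/- mouse and by −0.03 to 0.10 in WT mice. This difference of 0.25 had an adjusted p of 0.12 in the limma model, and of 0.053 and 0.046 with the mouse as a fixed and as a random effect.

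Macrophage markers moved in the same direction as *Csf1r* at 6 hr. Of 10 measured, 5 were called lower in *Cpeb4*-/- and 0 higher, where 9.92% of all genes tested were called lower and 6.4% higher. The median difference of the 10 markers was −0.27, where the median of all genes tested was −0.02. *Mrc1*, the mannose receptor, was −0.44 (adjusted p = 0.0024), *Lyz2*, lysozyme, −0.38 (0.019), *Aif1* −0.32 (0.011) and *Fcgr1*, an Fc receptor, −0.28 (0.0037). Their summed level was 19.24 to 19.33 (log2) in WT and 18.93 to 19.14 in *Cpeb4*-/- at 6 hr. The groups did not overlap in this sum at any of the 5 times, and at 9 hr, where *Csf1r* was level, it was 19.20 to 19.27 in WT and 18.90 to 19.12 in *Cpeb4*-/-. It was taken on the back-transformed scale, so the most abundant markers carry it. The 5 times come from the same mice and are not separate observations. At 6 hr the 99th percentile of rlog over the genes tested was lower in *Cpeb4*-/- too, at 14.91 against 15.03 in WT. The part of this scaling in the marker differences was not tested. The part of cell number or state in the difference of *Csf1r* was not tested, and in bulk RNA fewer cells of a type and less RNA per cell cannot be told apart.

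*Csf2rb*, the common beta chain, was higher in *Cpeb4*-/- from before LPS to 9 hr. At 0 hr WT libraries were at 12.54, 12.60, 12.59 and 12.35 and *Cpeb4*-/- libraries at 12.82, 12.86, 12.79 and 12.78. The groups did not overlap at 0 hr or at any of the 4 later times. All times come from the same mice, so they are not separate observations. The difference was 0.29 in untreated cells (standard error 0.06, adjusted p = 0.036) and 0.36 after 1 hr (0.09 and 0.062). It was 0.38 after 3 hr (0.07 and 0.019), 0.28 after 6 hr (0.05 and 0.0030) and 0.23 after 9 hr (0.06 and 0.051). They correspond to 1.17-fold to 1.30-fold. Within batches they ran from 0.15 to 0.41, all positive.

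The call of *Csf2rb* at 6 hr held in the 8 alternative fits and with each mouse left out (adjusted p from 0.00055 to 0.022). At 0 hr it was lost with 6 of the 8 mice left out (all but WT 69 and 87, adjusted p up to 0.13), without trend and without the filter, and at 3 hr with *Cpeb4*-/- mice 3, 62 or 2 or WT mouse 25 left out and without the filter. With all 40 libraries and the mouse as a block it was called at 1 hr (adjusted p = 0.00020) and 9 hr (0.0080) too. No change of this difference with LPS passed the test, as it departed from that of untreated cells by 0.07, 0.08, −0.015 and −0.06 at the successive times, each with a standard error of 0.10 (adjusted p = 0.90 or higher).

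*Csf2rb2*, the IL-3 beta chain, was called higher in *Cpeb4*-/- at 6 hr. At that time WT libraries were at 12.76, 12.76, 12.63 and 12.53 and *Cpeb4*-/- libraries at 13.08, 12.83, 12.90 and 12.96, without overlap. The groups were also apart at 0 hr but overlapped at 1, 3 and 9 hr, with 1 of 4 *Cpeb4*-/- values above all WT values at 3 hr. The difference was 0.27 (standard error 0.06, adjusted p = 0.012), or 1.21-fold. It was lost with all 40 libraries in one fit (adjusted p = 0.18 without and 0.11 with the mouse as a block) and without the filter (0.072). At the other times it was 0.31, 0.45, 0.34 and 0.32 (0, 1, 3 and 9 hr, adjusted p = 0.18, 0.096, 0.14 and 0.080), and with all 40 libraries and the block it was called at 1, 3 and 9 hr (0.0059, 0.048 and 0.047). Reads that fit both beta chain genes could carry a difference from the one to the other, which was not tested.

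No other gene near this pair was called higher in *Cpeb4*-/- at 6 hr. For the counts of neighbours below, 16.3% of all genes tested were called at 6 hr, 7.91% at 9 hr and 3.68% at 3 hr. Of 8 genes tested within 250 kb of *Csf2rb*, 2 were called at 6 hr, both lower in *Cpeb4*-/-. These were *Cyth4* at −0.38 (adjusted p = 0.00069), which encodes an exchange factor of ARF proteins, and the GTPase *Rac2* at −0.24 (adjusted p = 0.0069), and both were also called lower at 9 hr. Near *Csf2*, 0 of 4 genes tested were called at 3 hr and 1 of 4 at 6 hr, *Slc22a4* (0.35 higher in *Cpeb4*-/-, adjusted p = 0.028). At 9 hr 2 of 4 were called, both higher, *Slc22a4* (0.80, adjusted p = 0.0024) and *P4ha2* (0.51, 0.014). Near *Csf3*, *Nr1d1* (0.48) and *Thra* (0.31) were called at 6 hr among 12 genes, both encoding nuclear receptors. Near *Csf1r*, 1 of 6 was called at 6 hr, *Pdgfrb*, the PDGF receptor beta chain, which was 0.67 higher in *Cpeb4*-/- (adjusted p = 0.00022) while *Csf1r* was lower. At 9 hr 2 of 12 genes near *Csf3* and 2 of 5 near *Csf1r* were called.

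*Csf3r*, the G-CSF receptor, and *Csf2ra*, the GM-CSF alpha chain, were called at none of the times. *Csf3r* at 6 hr was at 13.17 to 13.43 in WT and at 13.07 to 13.27 in *Cpeb4*-/-, with 3 of 4 *Cpeb4*-/- values below all WT values. The difference was −0.15 (95% interval −0.28 to −0.02, adjusted p = 0.11), and it was called without WT mouse 87 (adjusted p = 0.045) or without *Cpeb4*-/- mouse 55 (0.044). At 1 hr it was 0.18 (adjusted p = 0.16, and 0.041 with all 40 libraries and the mouse as a block). *Csf2ra* differed by −0.00015 at 6 hr (95% interval −0.15 to 0.15) and by 0.07 to 0.18 at the other times.

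Granulocyte and stromal markers were also read beside these receptors. At 6 hr 6.4% of all genes tested were called higher in *Cpeb4*-/- and 9.92% lower. Of 5 neutrophil and granulocyte precursor markers tested at 6 hr, *Mmp8*, a collagenase, was higher in *Cpeb4*-/- (0.66, adjusted p = 0.00022) and the other 4 were not called. *Mmp8* was called higher at the 4 other times too, by 0.73 to 0.86. The summed level of the 13 was 8.66 to 9.01 in WT and 9.06 to 9.31 in *Cpeb4*-/- at 6 hr, and 8.20 to 8.73 against 8.96 to 9.31 at 0 hr, and the groups did not overlap in it at any time. That of the 10 stromal and endothelial markers was 10.97 to 11.31 and 11.25 to 11.71 at 6 hr, where *Pdgfrb* was the 1 of 5 tested that was called, and it did not overlap at the 4 other times. Such sums were taken on the back-transformed scale, so the most abundant markers carry them and not the list as a whole. The times share the same mice, so they are not separate observations. The median difference of the 5 granulocyte markers tested was −0.09 at 0 hr and 0.16 at 6 hr. *Mcpt4* was at 0 in every library, and of 2 dendritic, mast cell and eosinophil markers tested at 6 hr *Kit* was lower (−0.59). The part of other cell types in the differences of *Csf2rb*, *Csf2rb2* and *Csf3* was not tested.

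Genes that act with the members were read from fixed lists. Of all genes tested, 6.4% were called higher in *Cpeb4*-/- and 9.92% lower at 6 hr, and 7.91% were called in either direction at 9 hr. Of 7 genes tested for the other CSF1R ligand and for receptor shedding, such as *Adam17*, 0 were called at 6 or 9 hr. Of 18 genes of signalling below CSF1R, 2 rose above WT and 5 fell below it at 6 hr in *Cpeb4*-/-, with a median difference of −0.11. The largest were *Sos1*, which activates RAS (−0.49, adjusted p = 0.0042), *Fgr*, a SRC family kinase (0.31, 0.013), *Inpp5d*, a lipid phosphatase (0.21, 0.043), and *Lyn* (−0.16, 0.035). At 9 hr 0 were higher and 2 lower, among them the phosphatase *Ptpn6* (−0.24).

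Of 12 transcription factors of the *Csf1r* gene and the macrophage lineage, 1 was higher and 3 lower at 6 hr (6.4% and 9.92% of all genes tested). The median difference of the 12 was −0.08. Among those called, *Spi1*, which encodes PU.1, an activator of *Csf1r*, was −0.19 (adjusted p = 0.018) and *Maf* −0.22 (0.0074), while *Cebpa* was 0.60 (0.0014). At 9 hr 2 were higher and 2 lower, led by *Egr2* (0.57) and *Cebpa* (0.53). Of 11 genes of GM-CSF and G-CSF receptor signalling, 0 were higher and 3 lower at 6 hr, with a median difference of 0.0013, and 0 were called at 9 hr. The 3 lower at 6 hr were the kinase *Tyk2* (−0.41, adjusted p = 0.0014), *Stat3* (−0.21, 0.023) and *Ywhaz* (−0.13, 0.031).

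Genes that respond to STAT5 and STAT3 went both ways. Of 14 tested, 3 were higher and 3 lower at 6 hr (6.4% and 9.92% of all genes tested), with a median difference of −0.04. *Socs2* was 0.63 (adjusted p = 0.018), *Osm*, oncostatin M, 0.46 (0.0039), *Ccnd1*, cyclin D1, −0.38 (0.0036) and *Bcl2l1*, which encodes BCL-XL, −0.31 (0.00067). At 9 hr 2 were higher and 1 lower, with *Socs1* at 0.32 and *Ccnd1* at 0.30, so that *Ccnd1* was lower at 6 hr and higher at 9 hr. In WT 12 of these 14 rose with LPS at 6 hr and 1 fell, where 39.7% of all genes tested rose and 40.2% fell.

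The genes with the most similar courses are given as a description over the 10 group means, which share libraries within a mouse. *Csf2* was followed most closely by *Lif*, *Pvr* and *Spry1* (Pearson r of 0.99, 0.99 and 0.98). *Lif* encodes a cytokine, and *Spry1* an inhibitor of receptor tyrosine kinase signalling. *Csf1* was nearest to *Cdkn1a*, the cell cycle inhibitor p21, and *Col11a2* (0.99 each), and *Csf3* to *Vps26a*, *Ggnbp2* and *Arl8a* (0.99, 0.98 and 0.97), although these 3 span only 0.65 to 0.75 on the log2 scale. *Csf3r* was nearest to *Ncstn*, *Rrbp1* and *Lsm12* (0.998, 0.997 and 0.997), *Csf2rb* to *Foxk2*, *Cmklr1* and *Sox5* (0.99 each) and *Csf2rb2* to *Dner*, *Anpep* and *Washc5* (0.98 each). *Csf1r* was nearest to *Itpr3*, *Hps1* and *Dym* (0.97 each) and *Csf2ra* to *Epc2*, *Eif3a* and *Pan3* (0.98, 0.95 and 0.95). No member was among the 3 nearest genes of another.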

How the data were processed

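RNA-seq libraries came from macrophages of 4 WT and 4 *Cpeb4*-/- mice at 5 times of LPS treatment, 40 in all. The authors prepared libraries from poly(A) RNA, aligned reads to mm10 with STAR 2.3.0e, counted them per gene with featureCounts and deposited rlog values made with DESeq2, which are on a log2 scale. The table holds 27179 genes from −2.40 to 19.4, and 0 value columns were left unused. Counts were not used here, so depth is unknown, limma stands in for a count test, and strand was not stated.

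WT and *Cpeb4*-/- were compared at each time by limma 3.58.1 under R 4.3.3 (moderated variances with a trend on level) on genes whose average rlog reached 2.32, or log2 of 5, with Benjamini-Hochberg adjustment over all genes tested and calls at an adjusted p under 0.05. Changes over time and their difference between genotypes came from one model of 10 group means. Libraries share mice across times: after removal of group means, 68 of 80 same-mouse pairs correlated above 0.1 (median r 0.29, between mice −0.09), so fits with the mouse as a fixed effect or random effect (statmod 1.5.0, correlation 0.23) are given as the replicate block. Within-mouse steps were compared with exact permutation tests (scipy 1.17.1). Percent of peak used back-transformed values per mouse. Exon lengths, positions and 3′ UTRs are from GENCODE vM21 (mm10), and the 3′ UTR is the longest among protein-coding transcripts of a gene (21020 genes).

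Alternatives were a filter at an average rlog of 5 or none, moderated variances that were robust or had no trend, batch as a covariate, all 40 libraries with and without the block, quantile normalisation, values within batches, and each mouse left out. Named genes are the members, *Cpeb4*, the 3 genes most similar to each member, and called list genes with the largest differences (up to 4 at 6 hr and 2 at 9 hr), of which some are not reported here. The neighbours within 250 kb and marker genes shown beside a result were added. Members and lists were chosen with earlier results of these data known. The fits were tested on simulated data.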

Additional observations from a re-analysis of the deposited data

Results flagged for a closer look

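In 4 of the 80 groups of 4 libraries, 1 library lay far from the other 3 by Dixon's criterion, which chance alone meets in about 1 of 20 groups. *Csf2* was at 4.24 in *Cpeb4*-/- mouse 3 at 0 hr, with the others from 3.52 to 3.57. *Csf3* was at 8.29 in the same mouse at 9 hr, with the others from 7.87 to 7.89, and *Csf2rb* at 14.03 in it at 6 hr, with the others from 13.83 to 13.86. *Csf2ra* was at 13.41 in *Cpeb4*-/- mouse 2 at 9 hr, with the others from 13.56 to 13.58. Without mouse 3 the difference of *Csf2rb* at 6 hr was 0.23 (adjusted p = 0.0065).

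Steps between times differed between genotypes in fits with the mouse as a block. The *Csf2* difference of 1.34 between 1 and 3 hr had an adjusted p of 0.016 with the mouse as a fixed and 0.019 as a random effect, and 0.016 to 0.15 over the alternative fits. With each mouse left out and no block it was 0.077 to 0.47. The *Csf1* difference of 0.45 between 6 and 9 hr had 0.018 and 0.032 (0.018 to 0.21). The *Csf1r* difference of 0.25 between 6 and 9 hr was called with the random effect (0.046, range 0.046 to 0.32). Without the block none of these was called.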

How the results depend on the processing

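Of the 8 members, the number called between genotypes was 1, 0, 2, 5 and 0 at 0, 1, 3, 6 and 9 hr (1.31%, 1.91%, 3.68%, 16.3% and 7.91% of all genes). Without the filter 0 were called in untreated cells, 0 at 3 hr and 3 at 6 hr, where 0.241%, 0.804% and 6.2% of all genes were. Without trend 0 were called in untreated cells (0.947% of all genes). With all 40 libraries it was 2, 3 and 1 at 1, 6 and 9 hr without the replicate block and 3, 3 and 2 with it. Of all genes these fits called 31.9%, 15.6% and 17.4%, and 33%, 16.3% and 18.1% with the block. At 9 hr it was 1 with a mean rlog of at least 5, 2 with batch as a covariate and 1 after quantile normalisation. In these fits 9.36%, 13.7% and 7.13% of all genes were called. With each mouse left out the number of members called ran from 0 to 1, 0 to 4, 0 to 3, 4 to 6 and 0 to 2. Genes called over the whole table then ran from 44 to 163 (171 with all mice), 40 to 2440 (251), 76 to 2584 (481), 1347 to 2331 (2129) and 387 to 4575 (1029), beyond 1.5 times of the count with all mice for 5, 8, 7, 1 and 7 of the 8 mice.

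Over time, quantile normalisation gave 8 members for WT at 3 hr (5 as reported) and 5 between 6 and 9 hr in WT (3 as reported), where both forms of the replicate block also gave 5. The block with mouse as a fixed effect gave 8 for *Cpeb4*-/- at 1 hr (5 as reported). Over the alternative fits, genes called over the whole table ran from 9149 to 10137 for WT at 3 hr (9163 as reported). They ran from 6825 to 7879 between 6 and 9 hr in WT (7127) and from 5473 to 6324 for *Cpeb4*-/- at 1 hr (5495). For the genotype difference between 6 and 9 hr the block called 1 (fixed, 5.62% of all genes) and 2 (random, 5.34%). Between 1 and 3 hr it called 1 with each form (0.588% and 0.633%). Without the block 0 were called in these contrasts (1.92% and 0.13% of all genes).

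Quantile normalisation turned the sign of *Csf3* at 1 hr (−0.0025) and *Csf2ra* at 6 hr (0.10) between genotypes. Over time it turned *Csf2rb* at 3 hr (−0.23 in WT, −0.16 in *Cpeb4*-/-), *Csf2ra* at 6 hr in WT (−0.67), *Csf2rb2* at 6 hr (−0.34 and −0.41, and no longer called at 9 hr) and *Csf1r* at 1 hr in *Cpeb4*-/- (−0.15). With it the level at 9 hr in percent of peak (*Cpeb4*-/-, then WT) became 69.5 and 61.4 for *Csf1r*, 68.5 and 68.3 for *Csf2ra*, 98.99 and 98.83 for *Csf2rb2* and 94.6 and 97.3 for *Csf3r*. The cause was not tested.

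With a mouse left out, uncalled differences that changed sign ran from −0.10 to 0.054 (*Csf1*) and −0.058 to 0.0094 (*Csf3*) at 0 hr, −0.065 to 0.16 (*Csf3*) and −0.052 to 0.041 (*Csf1r*) at 1 hr, and −0.080 to 0.040 (*Csf1*), −0.10 to 0.27 (*Csf3*) and −0.013 to 0.036 (*Csf3r*) at 3 hr. At 6 hr they ran from −0.19 to 0.063 (*Csf2*) and −0.050 to 0.064 (*Csf2ra*), and at 9 hr from −0.35 to 0.14 (*Csf2*), −0.11 to 0.13 (*Csf3*) and −0.018 to 0.036 (*Csf1r*). Read depth is not in the table, and 4 mice a group limit what could be called.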
